A study of Mus musculus with 23 samples.

Results

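The 10 core and output genes of the circadian clock, Per1, Per2, Per3, Cry1, Nr1d1, Nr1d2, Dbp, Hlf, Arntl and Clock, were followed through ear wounding in mice that carry the cub mutation of Rhbdf2 and in wild-type mice. They were chosen by gene symbol with earlier results of these data known, so their shares beside those of all genes are a description. All 10 were found, each on a single row, among the 19938 genes measured. RNA of ear pinna from 4-week-old female mice was read on 23 microarrays of the type Affymetrix Mouse Gene 1.0 ST, and each value is a log2 RMA value, so that a higher value by 1 means a 2-fold higher level. The 11 cub arrays came from Rhbdf2cub/cub mice of the strain B6.Cg-Rhbdf2cub/J and the 12 wild-type arrays from Rhbdf2+/+ mice of the strain C57BL/6J. Tissue was taken at 0 h, which means unwounded, and at 15 min, 2 h and 24 h after the ear was pierced with a 2-mm punch, and each group held 3 arrays except cub at 15 min, with 2 (replicates 2 and 3). A 3-mm biopsy took the 1-mm rim of the hole from wounded ears. Which piece of ear was taken at 0 h is not given in the sources used here. In the labels, the arrays of a group are called biological replicates. Rhbdf2 encodes iRhom2, a membrane protein that escorts the sheddase ADAM17 to the cell surface, and the study asked how cub and wild-type ears differ as a wound closes.

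The clock is a feedback loop of transcription factors that runs in nearly every cell, including keratinocytes, fibroblasts and hair follicle cells of skin. CLOCK and BMAL1, the product of Arntl, bind E-boxes as a pair and activate the Per, Cry, Nr1d and Dbp genes. PER and CRY proteins repress that pair, and the nuclear receptors REV-ERBα and REV-ERBβ, from Nr1d1 and Nr1d2, repress Arntl through ROR elements. DBP and HLF are output factors of the PAR bZIP family that bind D-boxes. Most of these transcripts rise and fall over the day, with Arntl and E-box genes such as Nr1d1 and Dbp at opposite phases. The hour of day of each collection was not given in the sources used here, so hour of day and time after the punch cannot be told apart, and a part of the hour in any difference between the genotypes was not tested.

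The promoters of 5 members are shown because each holds the letters of an element that other members, or their relatives, are known to bind. Promoter windows run from 250 bases before to 50 bases from the gene start and come from RefSeq on GRCm38.p6, where 9 of the 10 members had 1 or more windows, 13 in all. Capitals mark a match on either strand to the E-box CACGTG, the variant E-box CACGTT, the D-box TATGTAA or TACGTAA, or the ROR element TAGGTCA or TGGGTCA, and no 2 matches overlap. Each sequence is written 5′ to 3′ on the strand of its gene.
Arntl, chr7:113207261-113207560, plus strand, with the ROR element TAGGTCA: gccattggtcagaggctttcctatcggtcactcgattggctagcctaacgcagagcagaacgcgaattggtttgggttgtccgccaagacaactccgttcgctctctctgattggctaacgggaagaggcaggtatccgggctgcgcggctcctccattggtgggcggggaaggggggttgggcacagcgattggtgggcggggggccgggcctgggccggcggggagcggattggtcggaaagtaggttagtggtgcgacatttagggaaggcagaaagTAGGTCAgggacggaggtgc
Per1, chr11:69098699-69098998, plus strand, with an E-box: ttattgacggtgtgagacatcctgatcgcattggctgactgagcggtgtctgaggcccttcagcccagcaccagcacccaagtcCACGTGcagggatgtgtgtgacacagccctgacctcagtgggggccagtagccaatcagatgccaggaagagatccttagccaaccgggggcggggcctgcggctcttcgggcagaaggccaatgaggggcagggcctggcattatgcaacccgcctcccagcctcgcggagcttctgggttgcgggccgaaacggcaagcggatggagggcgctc
Per3, chr4:151044616-151044915, minus strand, with 2 copies of the D-box TATGTAA: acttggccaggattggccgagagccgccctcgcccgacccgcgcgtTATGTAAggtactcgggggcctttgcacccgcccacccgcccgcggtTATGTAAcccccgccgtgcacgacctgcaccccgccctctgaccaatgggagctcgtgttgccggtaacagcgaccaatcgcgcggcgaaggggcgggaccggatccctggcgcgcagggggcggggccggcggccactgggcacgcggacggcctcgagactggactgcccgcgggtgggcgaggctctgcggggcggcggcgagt
Cry1, chr10:85185005-85185304, minus strand, with an E-box and a variant E-box on the other strand: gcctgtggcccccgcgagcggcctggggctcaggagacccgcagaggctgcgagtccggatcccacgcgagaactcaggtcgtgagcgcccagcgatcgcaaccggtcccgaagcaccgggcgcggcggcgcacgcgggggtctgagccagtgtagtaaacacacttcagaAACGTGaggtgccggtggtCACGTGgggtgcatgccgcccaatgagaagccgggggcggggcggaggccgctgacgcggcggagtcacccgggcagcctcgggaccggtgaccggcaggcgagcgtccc
Nr1d1, chr11:98775328-98775627, minus strand, with a variant E-box on the other strand: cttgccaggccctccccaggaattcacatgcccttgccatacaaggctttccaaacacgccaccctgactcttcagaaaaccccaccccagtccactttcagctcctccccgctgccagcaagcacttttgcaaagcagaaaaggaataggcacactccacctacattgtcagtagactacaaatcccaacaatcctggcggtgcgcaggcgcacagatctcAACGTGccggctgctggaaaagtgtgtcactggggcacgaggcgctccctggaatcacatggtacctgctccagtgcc

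The first base of the match lies 166 bases before the gene start in Per1, 60 bases before it for the E-box and 79 bases before it for the variant E-box in Cry1, and 28 bases before it in Nr1d1. In Per3 the D-boxes begin 204 and 157 bases before the start, and in Arntl the ROR element begins at base 31 from it. The windows of Dbp, Hlf, Nr1d2 and Clock, and the other windows of Per1 and Arntl, held no match to these letters. Of 32851 promoter windows of the mouse, 7.15% held CACGTG, 4.68% CACGTT, 2.83% TATGTAA, 0.475% TACGTAA, 2.61% TAGGTCA and 3.98% TGGGTCA. A match describes the sequence and was not tested for binding.

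Array medians lay between 6.37 and 6.46, and each array correlated with the mean of the rest of its group at r of 0.996 to 0.999. Epidermal and dermal identity was plain in every array: the mean level over 6 markers of basal keratinocytes lay between 11.33 and 11.86, over 4 markers of suprabasal keratinocytes between 11.66 and 12.52, and over 6 fibroblast markers between 10.63 and 11.52. Rhbdf2 itself averaged 9.11 ± 0.04 in cub and 8.70 ± 0.06 in wild type at 0 h (SD, n = 3 each), and 8.32 ± 0.13 in cub and 8.81 ± 0.22 in wild type at 24 h. Its probes were not placed against the mutation, so its level is a weak check of the labels. Rhbdf2 lies on chromosome 11, as do Per1, Hlf and Nr1d1, and other alleles that the cub strain may carry there were not tested.

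In unwounded ears, clock genes on both sides of the loop differed between cub and wild type, though not all members did. Arntl, Clock and Cry1 were lower in cub, and Per1, Dbp, Nr1d1 and Nr1d2 were higher. These 7 of 10 members passed the test (limma, adjusted p under 0.05 over all genes), where 5.25% of all genes did, 3.33% higher and 1.93% lower. The median absolute difference between the genotypes was 0.29 over the members and 0.07 over all genes. On separate arrays at 15 min, all 10 members differed in the same direction as at 0 h, but this share was not counted over all genes. For Per2 the difference was only 0.03 at 0 h and 0.02 at 15 min. Arntl, Clock and Dbp passed the test at 15 min, against 3.45% of all genes. At 2 h Arntl and Dbp passed, against 4.41% of all genes, and at 24 h Per1, Hlf and Arntl passed, against 5.68%. Averaged over the 4 times, 8 members differed between the genotypes, all but Per2 and Per3, where 18.3% of all genes did.

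**Figure D1:**
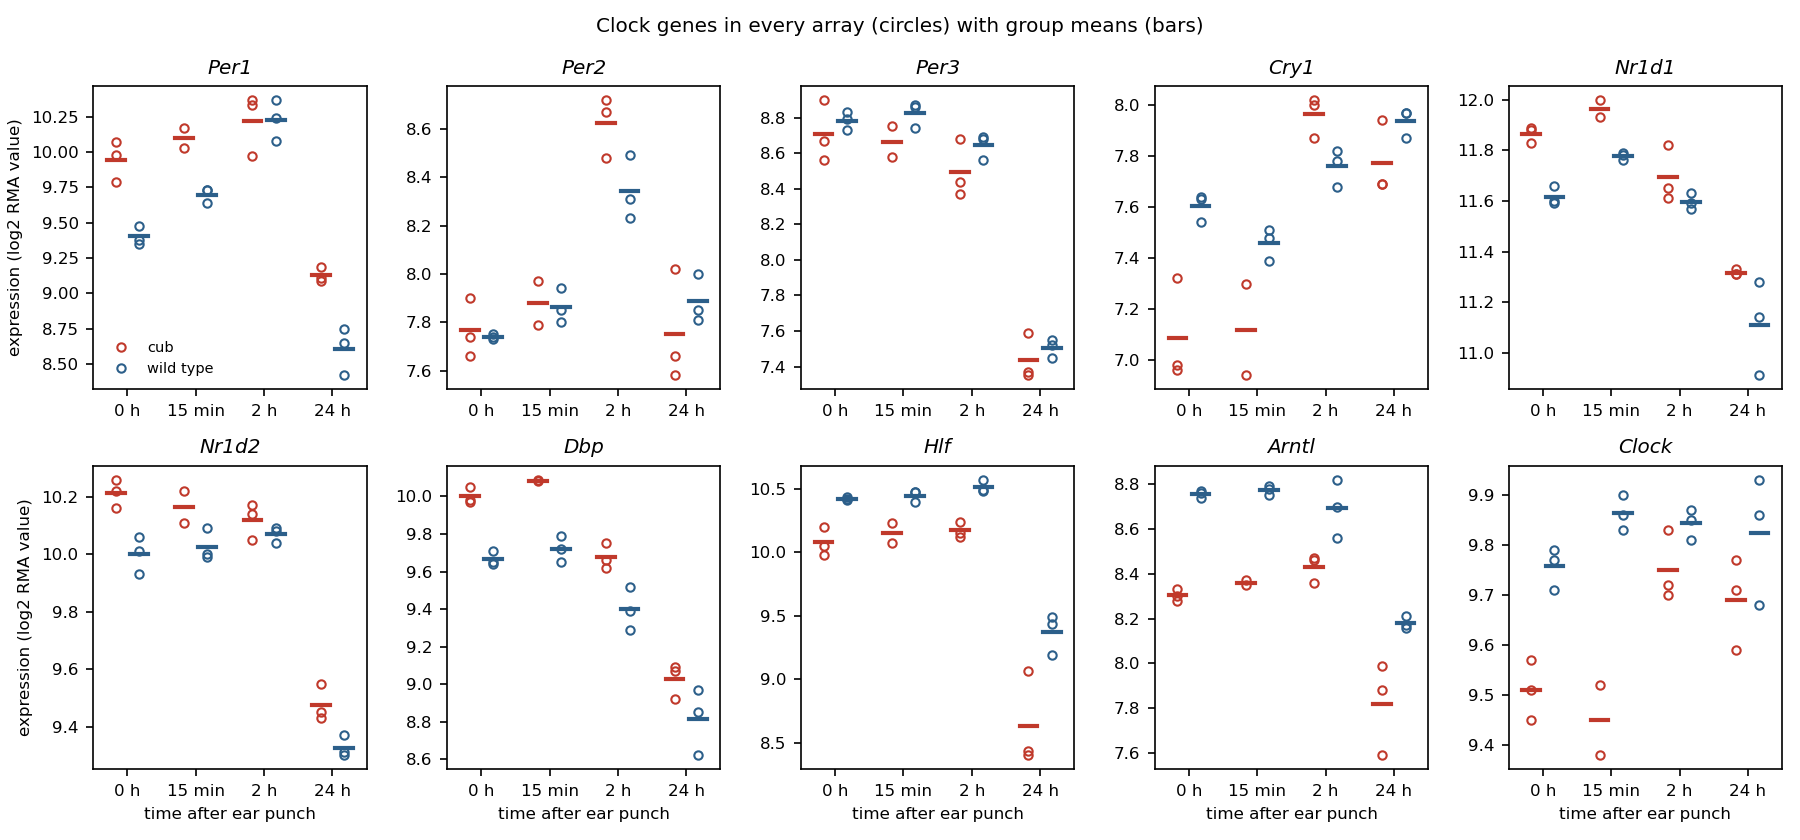
Expression of the 10 clock genes (vertical axis, log2 RMA value) at each time after the ear punch (horizontal axis), with a circle for each array and a bar for each group mean, cub in red and wild type in blue. Arntl lies lower in cub than in wild type at all 4 times without overlap, while Per1 is higher in cub at 0 h and 24 h and level with wild type at 2 h.

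Arntl, which encodes BMAL1, was the member that passed the genotype test at all 4 times. In cub it read 8.33, 8.30 and 8.28 at 0 h, 8.37 and 8.35 at 15 min, 8.46, 8.36 and 8.47 at 2 h, and 7.88, 7.99 and 7.59 at 24 h. In wild type it read 8.74, 8.77 and 8.76 at 0 h, 8.79, 8.78 and 8.75 at 15 min, 8.70, 8.56 and 8.82 at 2 h, and 8.16, 8.21 and 8.17 at 24 h. Every cub array lay below every wild-type array of its time. The difference was -0.45 ± 0.08 (SE) at 0 h, a 1.37-fold lower level (adjusted p = 0.00139), -0.41 ± 0.08 at 15 min (adjusted p = 0.0138), -0.26 ± 0.08 at 2 h (adjusted p = 0.0496) and -0.36 ± 0.08 at 24 h (adjusted p = 0.00682). Over the 4 times it came to -0.37 ± 0.04 (adjusted p = 1.866e-06).

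Clock, which encodes the partner of BMAL1, also had a lower mean in cub at all 4 times and passed at 0 h and 15 min. Its cub values were 9.51, 9.57 and 9.45 at 0 h, 9.52 and 9.38 at 15 min, 9.83, 9.72 and 9.70 at 2 h, and 9.71, 9.77 and 9.59 at 24 h. Its wild-type values were 9.77, 9.79 and 9.71 at 0 h, 9.83, 9.90 and 9.86 at 15 min, 9.87, 9.81 and 9.85 at 2 h, and 9.68, 9.86 and 9.93 at 24 h. The genotypes did not overlap at 0 h or 15 min, and they overlapped at 2 h and 24 h. Clock fell by 0.25 ± 0.06 in cub relative to wild type at 0 h (adjusted p = 0.0275) and by 0.41 ± 0.07 at 15 min (adjusted p = 0.00504), and the differences of -0.09 at 2 h and -0.13 at 24 h did not pass.

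Among the repressors, Per1, whose promoter E-box is shown above, was higher in unwounded cub ears. In cub it read 10.07, 9.98 and 9.79 at 0 h, 10.17 and 10.03 at 15 min, 10.37, 9.97 and 10.33 at 2 h, and 9.11, 9.19 and 9.09 at 24 h. Wild-type arrays read 9.38, 9.35 and 9.48 at 0 h, 9.64, 9.73 and 9.73 at 15 min, 10.37, 10.24 and 10.08 at 2 h, and 8.42, 8.75 and 8.65 at 24 h. The genotypes were apart at 0 h, 15 min and 24 h and overlapped at 2 h. Per1 was 1.46-fold higher in cub at 0 h, a difference of 0.54 ± 0.10 (adjusted p = 0.00320), and 1.44-fold higher at 24 h, a difference of 0.52 ± 0.10 (adjusted p = 0.00380). The difference was 0.40 ± 0.11 at 15 min (adjusted p = 0.0517) and -0.01 ± 0.10 at 2 h (adjusted p = 0.987).

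Cry1, the cryptochrome that holds the BMAL1 and CLOCK pair inactive, differed the other way. In cub it read 7.32, 6.98 and 6.96 at 0 h, 7.30 and 6.94 at 15 min, 8.02, 8.0 and 7.87 at 2 h, and 7.69, 7.94 and 7.69 at 24 h. In wild type it read 7.64, 7.54 and 7.63 at 0 h, 7.39, 7.48 and 7.51 at 15 min, 7.82, 7.68 and 7.78 at 2 h, and 7.87, 7.97 and 7.97 at 24 h. All cub arrays were below wild type at 0 h and 15 min and above it at 2 h. Cry1 was 1.43-fold lower in cub at 0 h, a difference of -0.52 ± 0.09 (adjusted p = 0.00310). The differences of -0.34 at 15 min, 0.20 at 2 h and -0.16 at 24 h did not pass.

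Per2 and Per3, the other period genes, gave no genotype call at any time. Per2 read 7.90, 7.74 and 7.66 in cub and 7.74, 7.75 and 7.73 in wild type at 0 h, and the genotype difference over the 4 times ranged between -0.13 and 0.28. Per3 read 8.90, 8.56 and 8.67 in cub and 8.83, 8.79 and 8.73 in wild type at 0 h, and its difference lay between -0.16 and -0.07. The genotypes overlapped at every time for both genes.

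Nr1d1 and Nr1d2, which encode the REV-ERB repressors of Arntl, were modestly higher in unwounded cub ears. Nr1d1 read 11.88, 11.89 and 11.83 in cub at 0 h and 11.93 and 12 at 15 min, and it read 11.60, 11.66 and 11.59 in wild type at 0 h and 11.78, 11.79 and 11.76 at 15 min. Nr1d2 read 10.26, 10.22 and 10.16 in cub at 0 h and 10.22 and 10.11 at 15 min, and it read 10.01, 10.06 and 9.93 in wild type at 0 h and 9.99, 10 and 10.09 at 15 min. Neither gene overlapped between the genotypes at these times. At 0 h the difference was 0.25 ± 0.07 for Nr1d1 (adjusted p = 0.0386) and 0.21 ± 0.05 for Nr1d2 (adjusted p = 0.0234). At the later times no difference passed, and they ranged between 0.10 and 0.21 for Nr1d1 and between 0.05 and 0.15 for Nr1d2. Averaged over the 4 times the differences were 0.19 ± 0.04 for Nr1d1 (adjusted p = 0.00103) and 0.14 ± 0.03 for Nr1d2 (adjusted p = 0.00153).

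The output factors Dbp and Hlf, which belong to the same protein family, went in opposite directions. Dbp in cub read 10.05, 9.98 and 9.97 at 0 h, 10.08 and 10.09 at 15 min, 9.66, 9.75 and 9.62 at 2 h, and 8.92, 9.07 and 9.09 at 24 h. Wild-type arrays read 9.71, 9.64 and 9.65 at 0 h, 9.65, 9.79 and 9.72 at 15 min, 9.39, 9.52 and 9.29 at 2 h, and 8.62, 8.97 and 8.85 at 24 h. The genotypes were apart at the first 3 times and overlapped at 24 h. Dbp was higher in cub by 0.33 ± 0.08 at 0 h (adjusted p = 0.0125), 0.365 ± 0.08 at 15 min (adjusted p = 0.0234) and 0.28 ± 0.08 at 2 h (adjusted p = 0.0400). At 24 h the difference was 0.21 ± 0.08 (adjusted p = 0.107).

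Hlf in cub read 10.20, 9.98 and 10.05 at 0 h, 10.23 and 10.07 at 15 min, 10.24, 10.12 and 10.15 at 2 h, and 8.40, 9.06 and 8.43 at 24 h. Wild-type arrays read 10.41, 10.43 and 10.42 at 0 h, 10.39, 10.47 and 10.47 at 15 min, 10.49, 10.48 and 10.57 at 2 h, and 9.19, 9.43 and 9.49 at 24 h. Every cub array lay below every wild-type array of its time, but only the 24 h difference of -0.74 ± 0.12 passed on its own, a 1.67-fold lower level (adjusted p = 0.000832). The differences of -0.34 at 0 h (adjusted p = 0.0960), -0.29 at 15 min and -0.34 at 2 h did not. Averaged over the times, Hlf fell by 0.43 ± 0.06 in cub relative to wild type (adjusted p = 5.392e-05) and Dbp higher by 0.30 ± 0.04 (adjusted p = 2.557e-05).

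**Figure D2:**
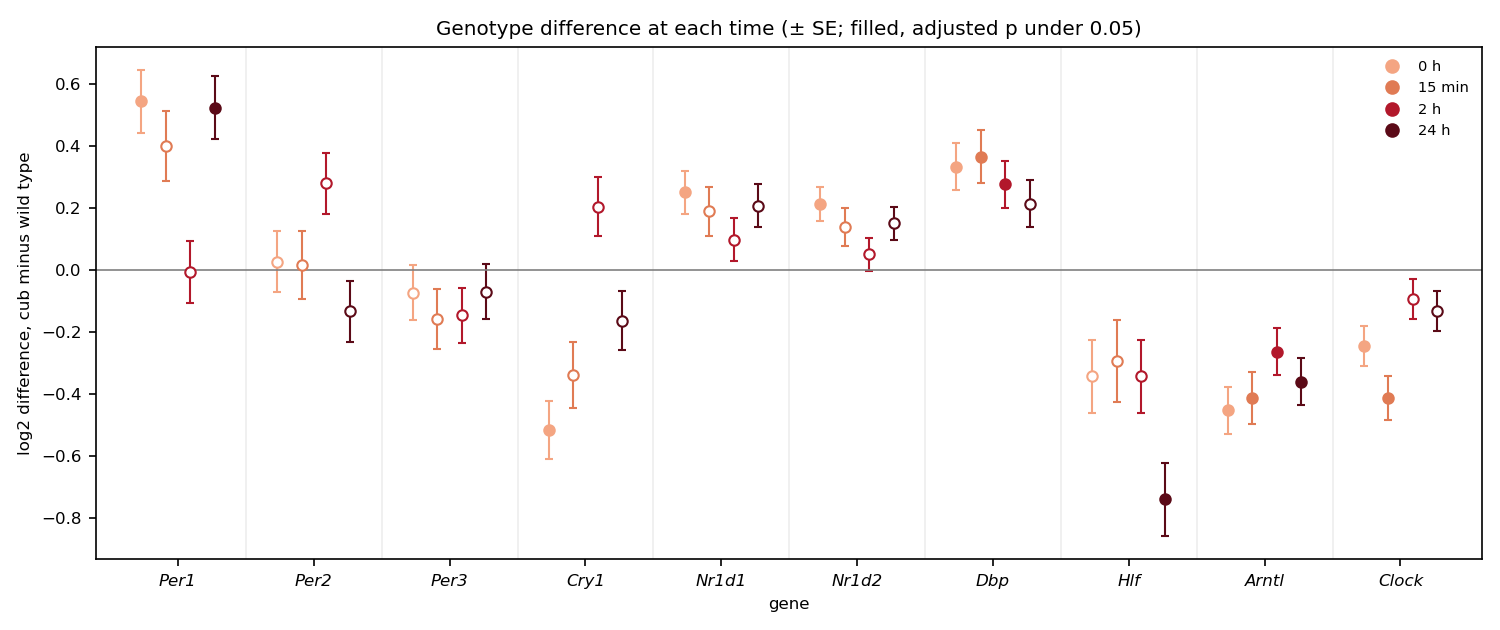
Difference between the genotypes (vertical axis, log2, cub minus wild type) for each clock gene (horizontal axis) at 4 times, from light at 0 h to dark at 24 h. Points are fitted differences with their standard error, filled where the adjusted p is under 0.05. Arntl is filled at all 4 times, and Cry1 runs from -0.52 at 0 h to 0.20 at 2 h.

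The weaker of these genotype calls rested on few arrays. At 0 h the Nr1d1 call was lost when any 1 of the 6 arrays was left out (adjusted p of 0.0599 to 0.145). The Clock call was lost without any of them but wild-type replicate 3 (0.0566 to 0.115), the Nr1d2 call without wild-type replicate 3 or cub replicate 1 or 2 (0.086 to 0.119), and the Dbp call without wild-type replicate 2 (0.0609), so that without wild-type replicate 2, cub replicate 1 or cub replicate 2, 4 members were called at 0 h. The Arntl, Per1 and Cry1 calls at 0 h, the Per1 call at 24 h and all 8 calls of the average held in every alternative tried. At 15 min no member was called without cub replicate 3 (0.106 to 0.164), and the Dbp call was also lost without wild-type replicate 1 (0.0861) or 3 (0.075). At 2 h the Arntl and Dbp calls were both lost without any 1 of the 6 arrays but wild-type replicate 2 (0.055 to 0.219), and at 24 h leaving out wild-type replicate 2 gave 5 calls, with Dbp (0.0356) and Nr1d1 (0.0167) added. In fits of only the arrays compared, the Clock (0.05915) and Nr1d2 (0.0921) calls at 0 h were lost, and Hlf was called there (0.0397). Also lost in these fits were the 3 calls at 15 min (0.0531 to 0.0909), the Dbp (0.0806) and Arntl (0.103) calls at 2 h, and the Hlf (0.0689) and Arntl (0.110) calls at 24 h.

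More of the clock genes differed from 0 h at 24 h after the punch than at 2 h, as did more of all genes. At 15 min no member passed the test against 0 h in either genotype, where 0.0251% of all genes did in cub and 0.0351% in wild type, and at an unadjusted p under 0.05 the members numbered 0 in cub and 2 in wild type. At 2 h, 4 members passed in cub (Per2, Cry1 and Clock up, Dbp down), against 11.9% of all genes, and 3 passed in wild type (Per1 and Per2 up, Dbp down), against 7.97%. At 24 h, 9 members passed in cub, 7 of them lower, against 46% of all genes, 24.9% lower, and 8 passed in wild type, 7 of them lower, against 42.8% of all genes, 22.4% lower. The median change at 24 h was -0.64 in cub and -0.625 in wild type over the members, and -0.0033 in cub and -0.02 in wild type over all genes. In whole tissue, fewer cells of a type and less RNA per cell cannot be told apart.

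**Figure D3:**
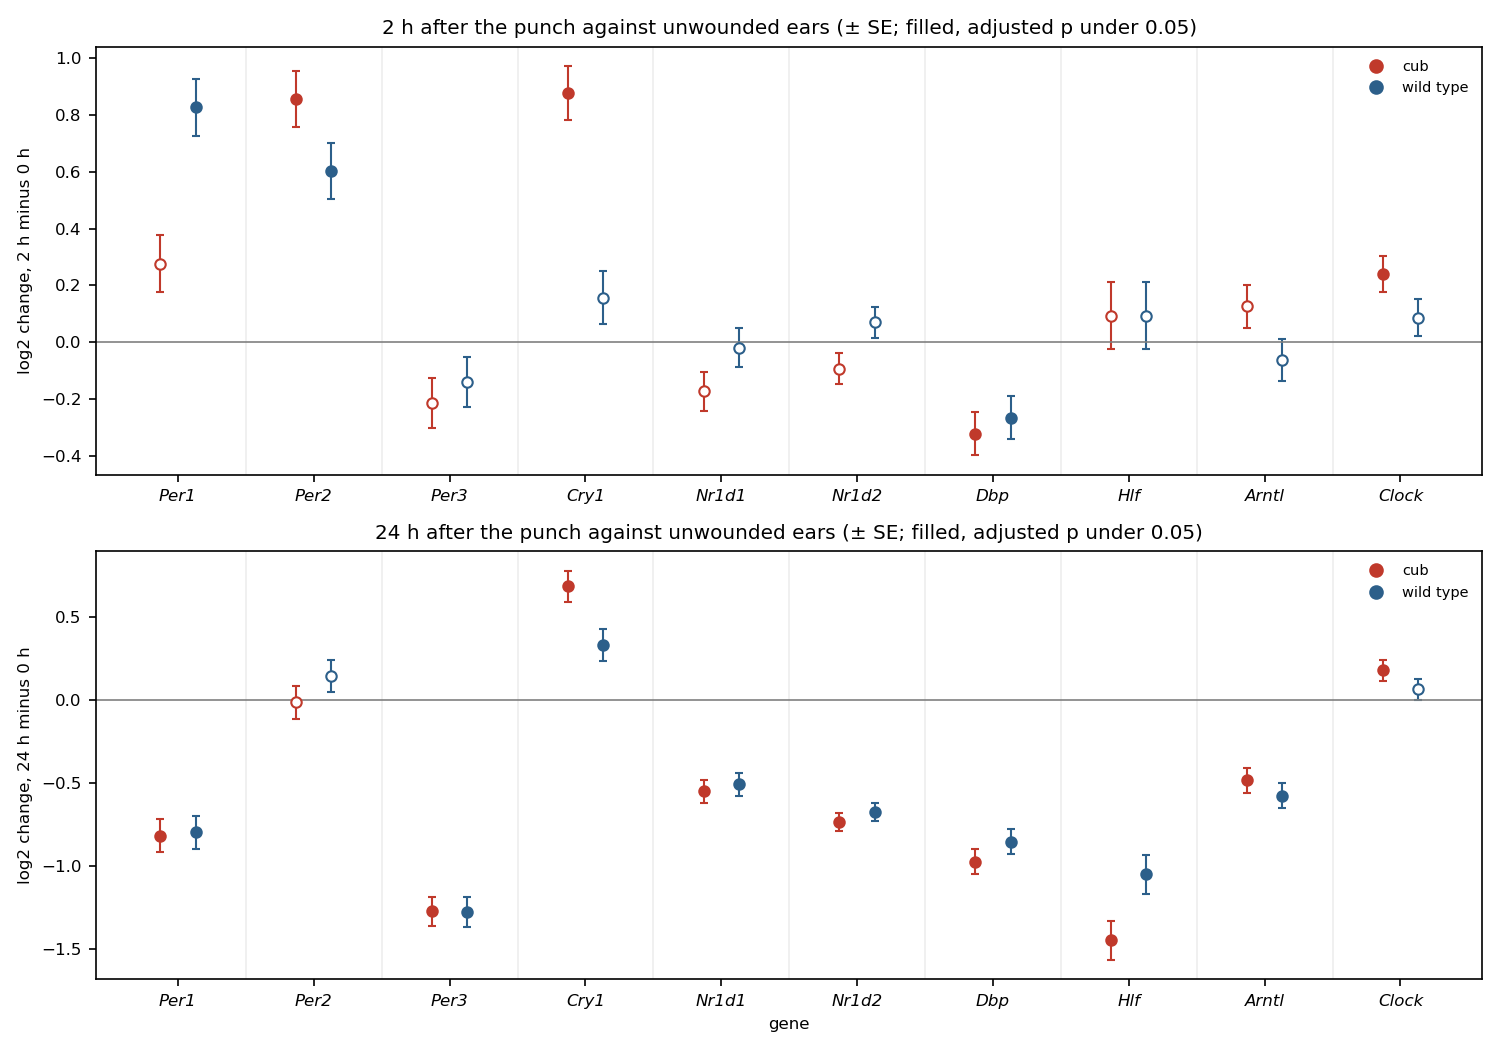
Change after the punch (vertical axis, log2, wounded minus 0 h) at 2 h (top) and 24 h (bottom) for each clock gene (horizontal axis), cub in red and wild type in blue. Points are fitted changes with their standard error, filled where the adjusted p is under 0.05. At 2 h Cry1 is filled in cub and open in wild type, and Per1 is the reverse. At 24 h the 7 genes that are lower are the same in both genotypes.

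At 2 h Per2 was higher in both genotypes, and Per1 passed the test in wild type. Per2 read 8.72, 8.48 and 8.67 in cub at 2 h and 8.49, 8.31 and 8.23 in wild type at 2 h, and no array at 2 h overlapped with 0 h of its genotype. Its rise was 0.86 ± 0.10 in cub, 1.81-fold (adjusted p = 3.067e-06), and 0.60 ± 0.10 in wild type, 1.52-fold (adjusted p = 0.000323). Per1 rose by 0.83 ± 0.10 in wild type, 1.77-fold (adjusted p = 8.482e-06), and changed by 0.28 ± 0.10 in cub, where the arrays at 2 h and 0 h overlapped (adjusted p = 0.0810). The Per1 means at 2 h were 10.22 ± 0.22 in cub and 10.23 ± 0.15 in wild type (SD, n = 3 each). The difference of the Per1 change between the genotypes was -0.55 ± 0.14 and did not pass (adjusted p = 0.145).

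Cry1 was the member whose 2 h change differed between the genotypes. It averaged 7.96 ± 0.08 at 2 h and 7.09 ± 0.20 at 0 h in cub, a rise of 0.88 ± 0.09 or 1.84-fold (adjusted p = 1.366e-06). In wild type it averaged 7.76 ± 0.07 at 2 h and 7.60 ± 0.06 at 0 h, a change of 0.16 ± 0.09 (adjusted p = 0.402). The cub change exceeded the wild-type change by 0.72 ± 0.13 (adjusted p = 0.0374), the only member called, against 0.13% of all genes. This call was lost in 10 of the 12 fits that leave out 1 array (adjusted p of 0.0569 to 0.130), all but those without cub replicate 2 at 2 h or cub replicate 1 at 0 h. At 0 h, cub replicate 1 stood at 7.32 and the other cub arrays at 6.98 and 6.96.

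The remaining 2 h changes were small. Dbp fell by 0.32 ± 0.08 in cub (adjusted p = 0.00621) and by 0.27 ± 0.08 in wild type (adjusted p = 0.0316). Clock rose by 0.24 ± 0.06 in cub (adjusted p = 0.0166) and changed by 0.09 ± 0.06 in wild type (adjusted p = 0.538). Per3, Hlf, Nr1d1, Nr1d2 and Arntl did not pass in either genotype, with changes between -0.21 and 0.13. The wild-type Dbp call was lost without any 1 of the 6 arrays but replicate 2 at 2 h (adjusted p of 0.0704 to 0.163), and the cub Clock call without cub replicate 1 at 2 h (0.0904) or replicate 3 at 0 h (0.0807).

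By 24 h, Arntl, Per1, Per3, both Nr1d genes and the outputs Dbp and Hlf were lower than at 0 h in each genotype, and Cry1 and, in cub, Clock were higher. Hlf had the largest range over the 8 groups, 1.88 between its lowest and highest group mean. Hlf fell by 1.45 ± 0.12 in cub, 2.73-fold (adjusted p = 1.171e-09), and by 1.05 ± 0.12 in wild type, 2.07-fold (adjusted p = 1.934e-07). Per3, which carries D-boxes in the promoter shown above, read 7.35, 7.59 and 7.37 in cub and 7.45, 7.52 and 7.55 in wild type at 24 h. It fell by 1.27 ± 0.09 in cub and by 1.28 ± 0.09 in wild type, 2.42-fold in each. Dbp fell by 0.97 ± 0.08 in cub and by 0.85 ± 0.08 in wild type. These genes had no array at 24 h that overlapped with 0 h of the same genotype.

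Per1, which was up at 2 h in wild type, had dropped below its unwounded level at 24 h, by 0.82 ± 0.10 in cub and by 0.80 ± 0.10 in wild type. Per2 read 7.58, 8.02 and 7.66 in cub and 7.81, 8.0 and 7.85 in wild type at 24 h, changes of -0.01 ± 0.10 in cub (adjusted p = 0.937) and 0.15 ± 0.10 in wild type (adjusted p = 0.264) from 0 h. Relative to 2 h, both period genes were lower at 24 h: Per1 fell by 1.09 ± 0.10 in cub and by 1.62 ± 0.10 in wild type, and Per2 by 0.87 ± 0.10 in cub and by 0.46 ± 0.10 in wild type. Against 2 h, 8 members passed in each genotype, all lower and all but Cry1 and Clock, where 42.2% of all genes passed in cub, 23.4% lower, and 41.5% in wild type, 20.4% lower.

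The REV-ERB genes and their target Arntl were lower together at 24 h. Nr1d1 read 11.31, 11.33 and 11.31 in cub and 10.91, 11.28 and 11.14 in wild type at 24 h, and Nr1d2 read 9.45, 9.55 and 9.43 in cub and 9.31, 9.30 and 9.37 in wild type. Nr1d1 fell by 0.55 ± 0.07 in cub and by 0.51 ± 0.07 in wild type, and Nr1d2 by 0.74 ± 0.05 in cub and by 0.67 ± 0.05 in wild type. Arntl fell by 0.48 ± 0.08 in cub and by 0.58 ± 0.08 in wild type (adjusted p = 1.318e-05 in cub and 1.617e-06 in wild type). Cry1 rose by 0.69 ± 0.09 in cub (adjusted p = 2.654e-06) and by 0.33 ± 0.09 in wild type (adjusted p = 0.00624). Clock rose by 0.18 ± 0.06 in cub (adjusted p = 0.0261), a call lost without cub replicate 1 or 2 at 24 h or cub replicate 1 or 3 at 0 h (0.0582 to 0.125), and changed by 0.07 ± 0.06 in wild type.

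The difference of the 24 h change between the genotypes passed for no member, where 1% of all genes passed, and at an unadjusted p under 0.05 it counted 2 members, Cry1 and Hlf. It was 0.35 ± 0.13 for Cry1 (adjusted p = 0.284) and -0.40 ± 0.17 for Hlf (adjusted p = 0.359). Without cub replicate 2 at 24 h, whose Hlf value of 9.06 stood above the 8.40 and 8.43 of the other cub arrays, 1 member was called. The difference of the 15 min change passed for no member and for no gene, with 0 members and 1740 genes at an unadjusted p under 0.05.

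Of the other genes of the clock and its output, 18 were tested. Npas2 was not analysed here. Between the genotypes 2 of the 18 were called at 0 h, 1 at 15 min, 0 at 2 h (by limma, with 1 at an unadjusted p under 0.05) and 2 at 24 h, where 5.25% of all genes were called at 0 h, 3.45% at 15 min, 4.41% at 2 h and 5.68% at 24 h. Bhlhe40, which encodes the E-box repressor DEC1, read 8.97, 9.02 and 8.82 in cub and 8.59, 8.61 and 8.54 in wild type at 0 h, without overlap. The cub level exceeded that of wild type by 0.36 ± 0.08 at 0 h (adjusted p = 0.0131), and at 24 h by 0.35 ± 0.08 (adjusted p = 0.0140). Csnk1e, a kinase of PER proteins, was higher in cub by 0.25 ± 0.07 at 0 h (adjusted p = 0.0405). Nampt, an enzyme of NAD synthesis, differed by -0.29 ± 0.07 at 15 min (adjusted p = 0.0234), a call lost without any 1 of the 5 arrays but cub replicate 2 (0.0513 to 0.264), and Arntl2, a paralogue of Arntl, was higher by 0.28 ± 0.07 at 24 h (adjusted p = 0.0271). The Bhlhe40 call at 0 h was lost without wild-type replicate 3 (0.0566) or cub replicate 2 (0.0882), and that at 24 h without wild-type replicate 1 (0.0806). The Csnk1e call was lost without any 1 of the arrays but cub replicate 3 (0.0502 to 0.249), and the Arntl2 call without any but wild-type replicate 2 or cub replicate 3 (0.0615 to 0.127). In fits of only the groups compared, the Csnk1e (0.119) and Nampt (0.134) calls and the 24 h calls of Bhlhe40 (0.0849) and Arntl2 (0.137) were lost. Median-centring also lost the Csnk1e call (0.0516).

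After wounding, 7 of the 18 were higher and 1 lower at 2 h in each genotype, with a median change of 0.14 in cub and 0.155 in wild type. Over all genes 11.9% were called at 2 h in cub and 7.97% in wild type, and the median change was -0.0067 in each. At 24 h, 7 were higher and 9 lower in cub, against 46% of all genes called, and 6 higher and 7 lower in wild type, against 42.8%. The median change at 24 h was -0.18 in cub and -0.057 in wild type over the 18, and -0.0033 in cub and -0.02 in wild type over all genes. Nfil3, a repressor that binds the D-box and so opposes DBP and HLF, read 9.16, 8.88 and 9.03 at 2 h and 7.19, 7.23 and 7.13 at 0 h in cub, and 9.21, 8.96 and 8.95 at 2 h and 7.15, 7.16 and 7.29 at 0 h in wild type. It rose by 1.84 ± 0.12 at 2 h in each genotype, and at 24 h by 1.80 ± 0.12 in cub and by 1.47 ± 0.12 in wild type (adjusted p = 5.894e-11 in cub and 2.147e-09 in wild type). Bhlhe40 rose by 1.00 ± 0.08 at 2 h in cub and by 1.44 ± 0.08 in wild type, and by 1.12 ± 0.08 at 24 h in cub and by 1.13 ± 0.08 in wild type. Nfil3 and Bhlhe40 were thus higher than at 0 h at both 2 h and 24 h in each genotype. Bhlhe41, another of the 18, averaged 7.46 at 24 h and 8.52 at 0 h in cub, and 7.81 at 24 h and 8.28 at 0 h in wild type. Any part of Nfil3, Bhlhe40 or Bhlhe41 in the clock gene changes was not tested.

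Cry2, the second cryptochrome, rose by 0.53 ± 0.09 at 2 h in cub and by 0.56 ± 0.09 in wild type, and fell by 0.93 ± 0.09 at 24 h in cub and by 0.63 ± 0.09 in wild type, whereas Cry1 was higher at 24 h. Ciart, a repressor of the BMAL1 and CLOCK pair, did not pass at 2 h and fell by 0.85 ± 0.15 at 24 h in cub and by 0.49 ± 0.15 in wild type; the wild-type call was lost without wild-type replicate 3 at 24 h (adjusted p = 0.0621). Rora, an activator at ROR elements such as the one shown for Arntl, read 10.20, 10.44 and 10.24 in cub and 10.31, 10.47 and 10.55 in wild type at 24 h, and fell by 1.00 ± 0.07 in cub and by 0.81 ± 0.07 in wild type. Usp2, a deubiquitinase under clock control, rose by 0.71 ± 0.09 at 2 h in cub and by 0.97 ± 0.09 in wild type.

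Wee1, a cell cycle kinase gene with E-boxes in its promoter, was the only 1 of the 18 whose change differed between the genotypes. For the difference of the change, 0% of all genes were called at 15 min, 0.13% at 2 h and 1% at 24 h. Wee1 read 7.73, 8.18 and 7.81 at 24 h and 9.26, 9.44 and 9.18 at 0 h in cub. In wild type Wee1 read 8.15, 8.27 and 8.37 at 24 h and 8.89, 8.87 and 8.87 at 0 h. It fell by 1.39 ± 0.13 in cub and by 0.61 ± 0.13 in wild type, a difference of -0.77 ± 0.18 (adjusted p = 0.0436). That call was lost with the replicate block (adjusted p = 0.0533), with median-centring (0.0536), and without any 1 of the arrays at 0 h or 24 h but cub replicate 2 at 24 h and cub replicate 3 at 0 h (0.0517 to 0.124).

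**Figure D4:**
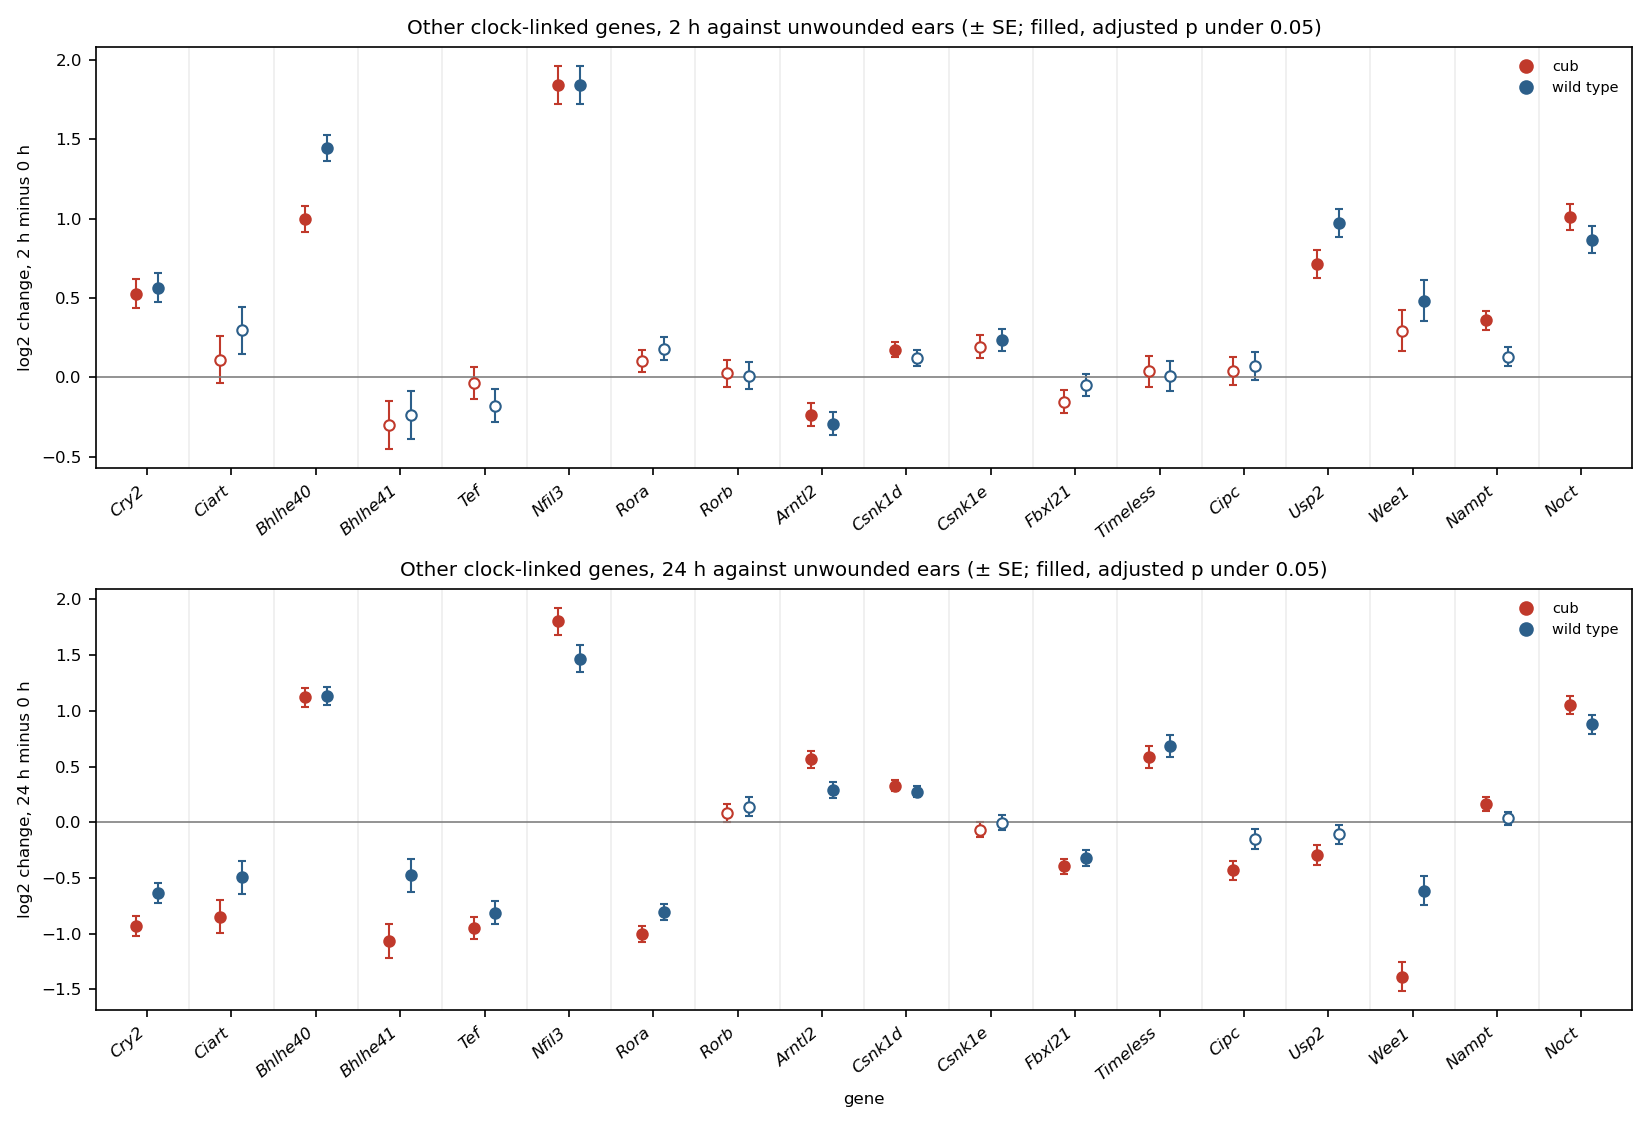
Change after the punch (vertical axis, log2, wounded minus 0 h) at 2 h (top) and 24 h (bottom) for 18 other clock-linked genes (horizontal axis), cub in red and wild type in blue. Points are fitted changes with their standard error, filled where the adjusted p is under 0.05. Nfil3 stands at 1.84 at 2 h in each genotype, and Wee1 at -1.39 in cub and -0.61 in wild type at 24 h.

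Per1 and Per2 are also targets of glucocorticoids and of immediate early signalling. Of 11 glucocorticoid-responsive genes 8 were higher at 2 h and none lower in each genotype, with a median change of 0.69 in cub and 0.82 in wild type, beside the 11.9% of all genes called in cub, the 7.97% in wild type and the all-gene median of -0.0067 in each. At 24 h, 4 were higher and 5 lower in each, where 46% of all genes were called in cub and 42.8% in wild type. Zbtb16, a zinc finger factor, rose at 2 h by 1.18 in cub and by 0.97 in wild type and at 24 h fell by 1.30 in cub and by 1.14 in wild type. Tsc22d3, which encodes the glucocorticoid-induced protein GILZ, had changes of 0.03 in cub and 0.04 in wild type at 2 h, and at 24 h it fell by 2.05 in cub and fell by 1.85 in wild type. Angptl4, an inhibitor of lipoprotein lipase that fasting and hypoxia also induce, rose at 24 h by 2.34 in cub and by 2.50 in wild type. Their part in the clock gene changes was not tested.

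Between the genotypes, 7 of the 11 glucocorticoid-responsive genes were higher in cub and none lower averaged over the 4 times, with a median difference of 0.23. Over all genes 18.3% were called for this average, and the median was 0.0088. Angptl4 was higher in cub by 0.81 ± 0.17 at 15 min (adjusted p = 0.0145), Fkbp5, a cochaperone of the glucocorticoid receptor, by 0.59 at 2 h (adjusted p = 0.0432), and Dusp1, a phosphatase of MAP kinases, by 0.47 ± 0.13 at 24 h (adjusted p = 0.0361). At 0 h, 2 of the 11 were called higher in cub, beside 3.33% of all genes. Any part of these 11 genes in the genotype differences of the clock genes was not tested. Of 8 immediate early genes, none passed the genotype test at any time (limma), with 0 at 0 h and 1 at each later time at an unadjusted p under 0.05. The shares of all genes that passed were 5.25% at 0 h, 3.45% at 15 min, 4.41% at 2 h and 5.68% at 24 h. Fos, which encodes an AP-1 subunit, rose at 15 min by 2.15 ± 0.29 in cub (adjusted p = 0.00583) and by 1.66 ± 0.26 in wild type (adjusted p = 0.0205). All 8 were higher at 2 h in each genotype, where 11.9% of all genes were called in cub and 7.97% in wild type. Their median change was 2.04 in cub and 2.43 in wild type, beside the all-gene median of -0.0067 in each. Fosb rose by 2.98 in cub and 3.20 in wild type, and the stress factor gene Atf3 by 2.62 in cub and 3.12 in wild type.

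Markers of the cell types of the ear were counted at 24 h, where 46% of all genes were called in cub and 42.8% in wild type. The mean level over 6 neutrophil markers was 9.895 to 10.36 at 24 h and 5.33 to 5.535 at 0 h in cub, and 9.53 to 9.86 at 24 h and 5.47 to 5.715 at 0 h in wild type, with all 6 markers higher. All 10 skeletal muscle markers were lower at 24 h in each genotype, with mean levels of 10.46 to 10.71 at 24 h and 11.25 to 11.33 at 0 h in cub, and 10.10 to 10.57 at 24 h and 11.05 to 11.16 at 0 h in wild type. Of 6 adipocyte markers 6 were lower in cub and 5 in wild type, of 5 cartilage markers 4 in cub and 5 in wild type, and of 6 fibroblast markers 4 in each genotype, with 1 higher. Of 6 macrophage markers 3 were higher in each genotype, with 1 lower in cub. Of 4 suprabasal markers 4 were lower in cub, and 3 lower and 1 higher in wild type. Of 6 basal keratinocyte markers 2 were higher and 3 lower in cub, and 2 higher and 1 lower in wild type. Of 7 hair follicle markers 2 were lower in cub, and 1 higher and 1 lower in wild type. The hair follicle share is below that of all genes in each genotype. Their part in the 24 h changes of the clock genes was not tested.

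At 2 h all 6 neutrophil markers were already higher in each genotype, at mean levels of 7.12 to 7.48 in cub and 6.375 to 6.94 in wild type. In cub 3 fibroblast markers were higher, and 4 adipocyte, 3 muscle and 2 suprabasal markers lower, and in wild type 1 basal keratinocyte marker was higher, beside the 11.9% of all genes called in cub and 7.97% in wild type.

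Between the genotypes at 0 h, 2 of 4 suprabasal markers were higher in cub, with mean levels of 12.36 to 12.52 in cub and 11.85 to 11.96 in wild type. Of 6 macrophage markers 2 were higher in cub, at 8.60 to 9.16 in cub and 8.36 to 8.55 in wild type, and of 5 cartilage markers 1 was higher and 1 lower. No marker of neutrophils, fibroblasts, adipocytes, muscle, basal keratinocytes or hair follicles was called at 0 h (limma), where 1 to 3 of each list had an unadjusted p under 0.05. At 15 min, 5 of 7 hair follicle markers were higher in cub, at 7.19 to 7.26 in cub and 6.25 to 6.29 in wild type, with 2 of 4 suprabasal markers. At 2 h, 5 macrophage, 4 fibroblast, 3 neutrophil and 2 suprabasal markers were higher in cub and 1 basal marker lower. At 24 h, 3 fibroblast and 2 each of the neutrophil, muscle and suprabasal markers were higher in cub and 1 basal marker lower. The shares of all genes called between the genotypes were 5.25% at 0 h, 3.45% at 15 min, 4.41% at 2 h and 5.68% at 24 h. Their part in the genotype differences of the clock genes was not tested.

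Across the 8 groups, the members differed in which group stood highest. Per1 and Hlf were highest in wild type at 2 h, and Per2 and Cry1 in cub at 2 h. Dbp and Nr1d1 were highest in cub at 15 min, Nr1d2 in cub at 0 h, and Per3, Arntl and Clock in wild type at 15 min. The lowest group was wild type at 24 h for Per1, Dbp, Nr1d1 and Nr1d2, and cub at 24 h for Per3, Hlf and Arntl. For Per1 the 4 highest groups were wild type and cub at 2 h and cub at 15 min and 0 h. Neighbours in order among these overlapped, and cub at 0 h did not overlap with the next group, wild type at 15 min. For Nr1d2 all 6 groups up to 2 h overlapped with their neighbour in order, and both groups at 24 h stood apart below them. For Arntl the 3 wild-type groups up to 2 h stood above the 3 cub groups up to 2 h without overlap. The range of group means was 1.88 for Hlf, 1.62 for Per1, 1.39 for Per3, 1.27 for Dbp and 0.41 for Clock, where the median over all genes was 0.34.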

How the data were processed

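Gene expression was measured in 23 ear samples, 1 array each. The authors deposited log2 values that had been normalized by RMA with version 1.1 of Affymetrix Expression Console, as the submitters' processing notes name them. Genome build, annotation release and summarization level are not given in the sources used here. There were 35556 rows, with values between 2.92 and 13.84. Of these, 21789 carried 1 gene symbol, 1621 several and 12146 none. Rows with 1 symbol were used, the row with the highest mean for the 999 genes with several, which left 19938 genes. RMA sets the probe intensities of all arrays to 1 common distribution before it summarizes them. Each change is therefore relative to the bulk of the genes, and the number of arrays limits the precision.

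The fit was made in R 4.3.3 by limma 3.58.1, with 1 mean for each of the 8 groups and 15 residual degrees of freedom. P values were two-sided and adjusted by the Benjamini-Hochberg method over all genes within each of 16 comparisons, at a threshold of 0.05: the genotypes at each time and over their average, each wounded time against 0 h and 24 h against 2 h in either genotype, and how far the change after wounding differed between cub and wild type. The members and the 12 gene lists, 98 genes of which 93 were measured, were chosen with earlier results of these data known. All 10 members are named where called. Of the other clock genes, the text names the 6 with the largest called difference in the genotype and in the wounding comparisons, with Cry2, Npas2, Nfil3, Bhlhe40 and Ciart whatever their values, and of the glucocorticoid and immediate early lists the 3 largest of each kind, with Fos at 15 min added as the only gene of its list called there. Genes of like pattern are the 6 with the highest and the 6 with the lowest Pearson r over the 8 group means.

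Alternatives tried were median-centring, quantile normalization, a filter at a highest group mean of 6 (13741 genes, all 10 members among them), the replicate number as a block, a fit of only the groups compared, trend and robust moderation, and each array left out in turn. An average without the 15 min arrays was chosen after seeing the data. The labels number the replicates without saying that a number is shared between groups. Deviations of same-numbered arrays from their group means correlated at a mean r of -0.027, so the numbers were not taken to pair the samples. The code was tested on simulated data.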

Additional observations from a re-analysis of the deposited data

Results flagged for a closer look

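Among the clock genes and their relatives, 2 changes after the punch differed between the genotypes by the test of that difference itself. Over all genes, 0.13% passed that test at 2 h and 1% at 24 h. The 2 h change of Cry1 was larger in cub than in wild type by 0.72 on the log2 scale. The 24 h change of Wee1 was more negative in cub than in wild type, with a difference of -0.77. Neither call held in every fit that left out 1 array.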

How the results depend on the processing

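Of 64 calls of a member, 49 held in every alternative, 15 were lost in at least 1 and 0 reversed. With median-centring, 1 member was called between the genotypes at 2 h (Dbp, with Arntl lost) and 0 for the difference of the 2 h change. With only the groups compared, Clock and Nr1d2 were lost at 0 h and Hlf was added. The same fit called 0 at 15 min, 1 at 2 h (Hlf, which was not called in the main fit, at -0.34 and adjusted p = 0.0207, while Arntl and Dbp were lost), 1 at 24 h (Per1) and 0 for the difference of the 2 h change. This fit was not run for the average, which uses every array. With the replicate block, 1 was called at 2 h (Dbp) and 0 for the difference of the 2 h change, and 4 of 23 arrays correlated best with arrays of their own number. Leaving out each array gave 4 to 5 members called at 0 h, 0 to 4 at 15 min, 0 to 2 at 2 h, 3 to 5 at 24 h, 8 to 9 for the average, 3 to 6 for cub at 2 h against 0 h, 2 to 3 for wild type at 2 h, and 0 to 1 for the difference of the change at 2 h and at 24 h. The causes were not tested. Over all genes, only the groups compared gave 514 calls at 0 h, 67 at 15 min and 258 at 24 h, against 1047, 688 and 1133, and for the difference of the change 10 at 2 h and 74 at 24 h, against 26 and 200; for 15 min against 0 h it gave 0 in cub and 26 in wild type, against 5 and 7. The replicate block gave 414 at 15 min and 4 for the difference of the 2 h change, and median-centring 12 for the difference of the 2 h change. Quantile normalization gave 1469 calls over all genes between the genotypes at 0 h. It lost the Dbp call between the genotypes at 2 h (adjusted p = 0.120) and added Hlf at 0 h and 2 h and Per1 at 15 min. With 2 or 3 arrays a group, the number of arrays limits what could be called.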

Other observations

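Genes outside the clock lists that followed Dbp or Arntl over the 8 group means were named by Pearson r among the 6371 genes whose group means ranged over at least 0.5. These r values describe 8 points, which share their libraries and a common shift at 24 h. Dbp was most like Clec14a, an endothelial lectin (r = 0.997), followed by Steap3, Dtx1, Yipf2, Tpra1 and Nxn (0.988), and most unlike Ddx46, an RNA helicase of the spliceosome (-0.995), Ankrd28, Stil, Lrrc8d, Surf6 and Brix1 (-0.981). Among the members, Nr1d1 followed Dbp at 0.984 and Nr1d2 at 0.929, Hlf at 0.673 and Cry1 at -0.780.

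Arntl was most like Med14, a Mediator subunit (0.997), Slc6a2, Guca2a, Gsta3, Panx3 and Gm16527 (0.986), and most unlike Tnfrsf4, a T cell costimulatory receptor (-0.984), Fcer1a, the IgE receptor chain of mast cells (-0.976), Gap43, Aqp9, Tph1 and Angpt2 (-0.970). Hlf followed Arntl at 0.937 and Dbp at 0.458.

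The spread between replicates differed among the members. The residual SD was 0.055 for Nr1d2, at the 7.32 percentile of all genes, and 0.16 for Hlf, at the 92.7 percentile, where the median gene had 0.094.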
